A study of Homo sapiens with 10 samples.

Results

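The genes CHGA, CHGB, SCG2, SCG3, SYP, SNAP25, ENO2, NCAM1 and CHRNB2 were examined as markers of neuroendocrine cells and parts of their secretory machinery, 9 of 20033 protein-coding genes. They were taken from a list of names, and every acetylated region over each gene body and 50 kb to each side was read out, together 1.46 Mb of the genome. H3K27ac and H3K18ac had been profiled by ChIP-seq in C4-2B, a line of castration-resistant prostate adenocarcinoma, and in C4-2BER, its neuroendocrine-like derivative that is resistant to enzalutamide, a hormone therapy drug for prostate cancer. The study's methods keep C4-2BER in enzalutamide, and the labels name the same serum medium for both cell lines and no further treatment. Each mark had 2 libraries per cell line and each cell line had 1 input library, and C4-2BER is a single derived line. The replicates were merged before peaks were called, so each of the 4 peak lists gives 1 value per region, without an error over replicates, so that the cell lines could not be tested against each other, and library depth is unknown. The lists held 68034 H3K27ac peaks in C4-2B and 72971 in C4-2BER, and 198451 and 197948 H3K18ac peaks.

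Neuroendocrine cells store peptide hormones in dense-core granules, and the granins are the most abundant proteins of these granules. Chromogranin A (CHGA) and chromogranin B (CHGB) help to form the granule, secretogranin II (SCG2) is cut into signalling peptides, and secretogranin III (SCG3) holds chromogranin A at the granule membrane. Synaptophysin (SYP) spans the membrane of small vesicles, and SNAP25 is a SNARE protein that fuses vesicles with the cell membrane. Neuron-specific enolase (ENO2) is a glycolytic enzyme, NCAM1 (CD56) is a cell adhesion molecule, and CHRNB2 is a beta subunit of the neuronal nicotinic acetylcholine receptor. In other cells many such genes are kept silent by REST, a repressor that binds the RE1 element and recruits histone deacetylases. Acetylation of histone H3 at lysine 27 or lysine 18 accompanies active promoters and enhancers.

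The promoters of these genes carried little acetylation in either cell line, and none of the granin genes CHGA, CHGB, SCG2 and SCG3 had promoter H3K27ac. A promoter here spans 2000 bp before and 500 bp after a transcription start site (TSS), and its value is the fold enrichment of the strongest peak there, the ratio of ChIP signal to local background in the authors' list. At the promoter of the canonical transcript, H3K27ac was present at SYP, SNAP25 and ENO2 in both cell lines and at none of CHGA, CHGB, SCG2, SCG3, NCAM1 and CHRNB2, whereas 69.5% of all protein-coding genes had such a peak in C4-2B and 70.0% in C4-2BER. H3K18ac was more common, at 8 of the 9 genes in C4-2B and 6 in C4-2BER, against 84.2% and 81.7% of all genes. Counted over every annotated start site, H3K27ac promoter peaks had a median fold enrichment of 3.56 at 4 of the 9 genes in C4-2B and 5.67 at 3 genes in C4-2BER, while the medians over all genes with such a peak were 18.2 and 12.5. All 4 values in C4-2B lay under the median of all genes, and in C4-2BER ENO2 lay above it, at 14.3.

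The cell lines were checked with promoters of marker genes. All 10 genes of a prostate luminal list carried H3K27ac promoter peaks in both cell lines, among them KLK3, which encodes prostate-specific antigen, with a fold enrichment of 20.3 in C4-2B and 13.8 in C4-2BER. None of the basal cell genes KRT5, KRT14 and TP63 had an H3K27ac promoter peak. The neuroendocrine transcription factors INSM1, NEUROD1 and FOXA2 had none in either cell line. Of the markers of other cells, the immune genes PTPRC and CD3E and the endothelial gene PECAM1 had none, and the fibroblast gene COL1A1 had 10.7 in C4-2B and 6.86 in C4-2BER, and its part in the results was not tested. Both cell lines thus carried luminal promoter acetylation, and C4-2BER, labelled as neuroendocrine-like, had no H3K27ac promoter peak at these 3 factors.

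A promoter was called increased where C4-2BER alone had a peak or where its fold enrichment reached 2 times that of C4-2B, and decreased where the reverse held. Over every annotated start site, H3K27ac was increased at 1 of the 9 genes, ENO2, and decreased at 1, CHRNB2, whereas by the same rule 3.49% of all protein-coding genes were increased and 8.27% decreased. H3K18ac was increased at none of the 9 and decreased at 1, CHGB, against 1.92% and 5.25% of all genes. By presence alone, CHRNB2 had an H3K27ac promoter peak in C4-2B only, as 2.39% of all genes did, and none of the 9 had one in C4-2BER only, against 2.82%. An H3K18ac promoter peak in C4-2B only was seen at CHGB, against 3.83% of all genes, and in C4-2BER only at none, against 1.79%. With the canonical start site alone, neither H3K27ac call remained, and H3K18ac was decreased at CHGA and CHGB, against 6.01% of all genes. The ratio of fold enrichments is scaled to the background of each list, and over all genes whose promoter had a peak in each of the lines the median log2 ratio of C4-2BER to C4-2B was −0.50 for H3K27ac and −0.33 for H3K18ac. Ratios of single genes are to be read against these shifts.

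**Figure D1:**
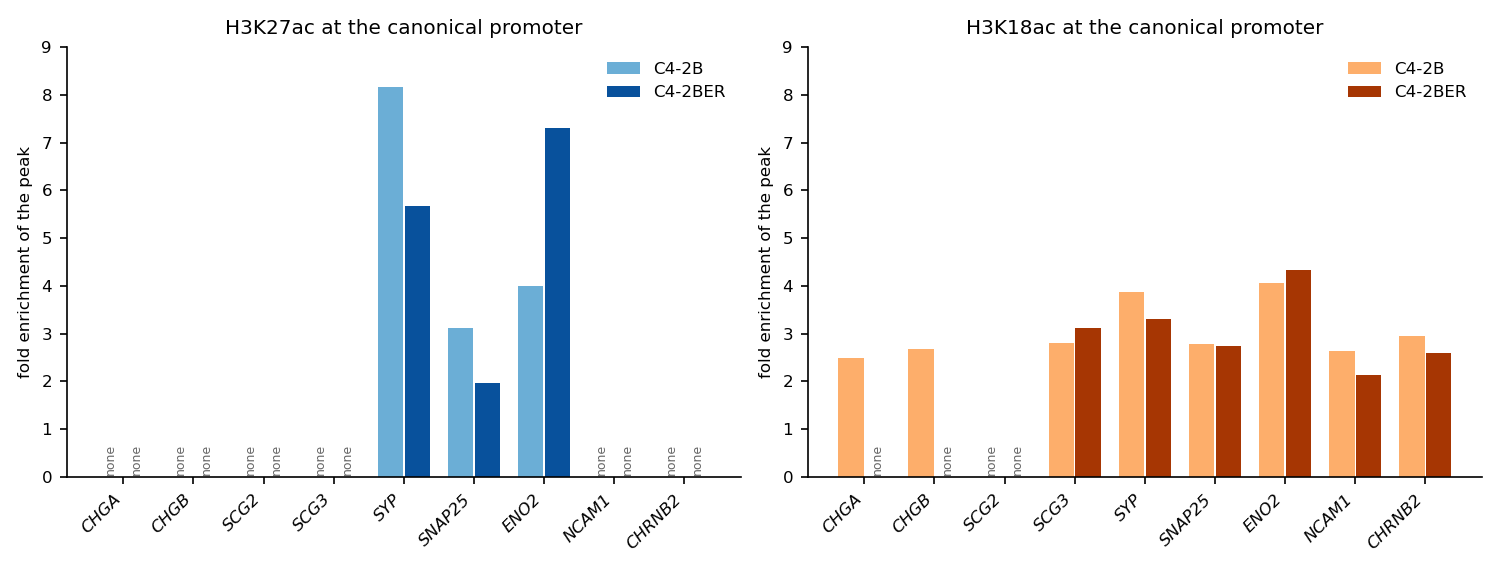
Fold enrichment (linear axis) of the strongest H3K27ac peak (left) and H3K18ac peak (right) at the promoter of the canonical transcript of each gene, with light bars for C4-2B and dark bars for C4-2BER and 1 pooled value per bar, so there are no error bars. H3K27ac stands at SYP, SNAP25 and ENO2 alone and rises at ENO2 from 4.00 to 7.30, while H3K18ac peaks of CHGA and CHGB are present in C4-2B only.

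CHGA (GRCh38, chr14:92923150-92935285, plus strand, 8 exons in the canonical transcript) had no H3K27ac at its start in either cell line. The 250 bases before its start hold a cyclic AMP response element, TGACGTCA, at positions −54 to −47 from the start, shown in capitals, since it is the best-known control element of this promoter. This element occurs on either strand in 1.85% of 35116 promoters of 300 bases in the RefSeq table (GRCh38.p14).
CHGA promoter, chr14:92922900-92923149, plus strand: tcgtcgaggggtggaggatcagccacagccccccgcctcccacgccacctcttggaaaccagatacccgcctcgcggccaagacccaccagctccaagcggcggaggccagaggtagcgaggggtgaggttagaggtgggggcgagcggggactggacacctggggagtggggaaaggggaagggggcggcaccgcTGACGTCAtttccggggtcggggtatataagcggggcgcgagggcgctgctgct

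No H3K27ac peak covered this stretch in either cell line. H3K18ac covered it in C4-2B, in a peak of 1845 bp from 325 bp upstream to 1519 bp downstream of the start with a fold enrichment of 2.50. The nearest H3K18ac peak of C4-2BER began 574 bp downstream of the start, with a fold enrichment of 2.29 over 1074 bp. The start of CHGA itself was thus under an H3K18ac peak in C4-2B only.

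The strong acetylation near CHGA lay downstream, inside the body of the neighbouring gene ITPK1, an inositol phosphate kinase. In C4-2B, 5 H3K27ac peaks between 20.03 and 52.5 kb downstream of the CHGA start had fold enrichments of 16.95, 3.28, 2.77, 12.2 and 19.5. C4-2BER had 3 longer peaks there, with 6.33, 10.4 and 13.8, the first of them 13521 bp. Merged over the cell lines, and with a further C4-2B peak of 2.19 that the first C4-2BER peak also overlapped, these were 3 regions, with length-weighted values of 9.33, 11.8 and 19.5 in C4-2B, and none of the 3 reached a ratio of 2. Covered length and peak height thus moved in opposite directions at this locus. Within the gene body, C4-2B had an H3K27ac peak in intron 4 with a fold enrichment of 2.36 over 1276 bp, and C4-2BER had none.

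CHGB (chr20:5911510-5925353, plus strand) had no H3K27ac over its gene body in either cell line. Its only promoter signal was an H3K18ac peak of 282 bp over the start with a fold enrichment of 2.67 in C4-2B, and no H3K18ac peak in C4-2BER lay nearer than 19.9 kb to the start. The strongest peak of the window stood 37.6 kb downstream in C4-2B and 38.3 kb in C4-2BER, at the divergent promoters of TRMT6, a tRNA methyltransferase subunit, and MCM8, a helicase, with H3K27ac at 16.7 in C4-2B and 15.4 in C4-2BER. CHGB was the only gene of the 9 with less H3K27ac-covered length in C4-2BER, 1.90 kb against 3.33 kb, and C4-2B had 3 short regions in the body of MCM8 that C4-2BER lacked.

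SCG2 (chr2:223596940-223602361, minus strand) was the emptiest locus. C4-2B had no H3K27ac peak in the whole window of 105 kb. C4-2BER had 1, of 894 bp and a fold enrichment of 3.79, whose near end lay 38.9 kb upstream of the start. H3K18ac peaks stood at the same place in both cell lines, with 3.20 in C4-2B and 4.00 in C4-2BER, and 10.8 kb upstream in C4-2B, with 3.03, and 10.6 kb upstream in C4-2BER, with 3.30. The promoter and the gene body carried neither mark.

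SCG3 (chr15:51681492-51721026, plus strand) was, of the granins examined, the one with the most acetylation gained inside its own gene. H3K27ac in intron 10, 26.9 kb downstream of the start in C4-2B and 26.1 kb in C4-2BER, had a fold enrichment of 3.36 over 320 bp in C4-2B and 7.55 over 1481 bp in C4-2BER. H3K18ac at the same place had 3.44 over 395 bp and 4.49 over 3158 bp. At the last exon, exon 12, H3K27ac had 2.43 in C4-2B and 4.07 in C4-2BER, and H3K18ac 2.09 and 2.87. Both marks were thus higher and wider in C4-2BER at both places. C4-2BER also had H3K27ac peaks 44.8 and 50.04 kb downstream of the start, with 2.50 and 3.66, where C4-2B had none. The promoter had no H3K27ac, and its H3K18ac peak had 2.81 in C4-2B and 3.13 in C4-2BER. At the neighbour LYSMD2 the strongest H3K27ac peak of the window went the other way, with 33.4 and 22.9.

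Among the genes of vesicles, SYP (chrX:49187815-49200218, minus strand) had the strongest H3K27ac promoter of the 9 in C4-2B. The fold enrichment was 8.16 over 937 bp in C4-2B and 5.67 over 2017 bp in C4-2BER, and the log2 ratio of −0.53 was close to the median of all genes. H3K18ac had 3.88 and 3.30. A stronger peak lay inside the gene and touched exon 6, from 6.73 to 10.1 kb downstream of the start in C4-2B, with H3K27ac at 24.05 in C4-2B and 14.9 in C4-2BER and H3K18ac at 9.89 and 6.13. The SYP gene body was thus acetylated in both cell lines, and both marks had lower fold enrichments in C4-2BER. Around it, the promoters of PRICKLE3, PLP2, MAGIX and of the pair CACNA1F and CCDC22 carried H3K27ac between 11.3 and 22.5, and PLP2 alone of these was higher in C4-2BER, with 17.8 against 13.4.

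SNAP25 (chr20:10172395-10308258, plus strand) had weak promoter signal. H3K27ac had a fold enrichment of 3.11 over 233 bp in C4-2B, just downstream of the start, and 1.96 over 950 bp, across the start, in C4-2BER. H3K18ac at the canonical promoter had 2.78 and 2.74. At the promoter of an alternative start upstream it had 3.55 and 4.08, in a peak whose far edge lay 46.8 kb upstream of the canonical start in C4-2B. H3K18ac thus hardly moved at the canonical start. A C4-2BER H3K27ac peak with 2.82 appeared in intron 1, 20.9 kb downstream, where H3K18ac had 2.31 in C4-2B and 2.99 in C4-2BER. Downstream of the gene, 109.7 kb from the start in C4-2B, H3K27ac had 7.70 in C4-2B and 5.41 in C4-2BER.

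ENO2 (chr12:6913745-6923698, plus strand) had the only promoter with a higher H3K27ac fold enrichment in C4-2BER. At the canonical start it was 4.00 over 1947 bp in C4-2B and 7.30 over 4588 bp in C4-2BER, a ratio of 1.83. This ratio was higher than that of 98.9% of the 13466 genes with a canonical promoter peak in both cell lines. The call of ENO2 as increased rested on another peak, of 26021 bp and 14.3-fold enrichment in C4-2BER, which ran from the last exons of ENO2 into ATN1, C12orf57 and PTPN6 and touched an annotated internal start. In C4-2B the corresponding peaks, with 24.4 and 14.9, began 9746 bp downstream of the ENO2 start. H3K18ac at the promoter was 4.06 in C4-2B and 4.33 in C4-2BER. The promoter stretch is shown because H3K27ac was higher there in C4-2BER, and its 300-base promoter in the RefSeq table had 75.0% G and C, against a median of 58.7% over all promoters in that table.
ENO2 promoter, chr12:6914330-6914579, plus strand: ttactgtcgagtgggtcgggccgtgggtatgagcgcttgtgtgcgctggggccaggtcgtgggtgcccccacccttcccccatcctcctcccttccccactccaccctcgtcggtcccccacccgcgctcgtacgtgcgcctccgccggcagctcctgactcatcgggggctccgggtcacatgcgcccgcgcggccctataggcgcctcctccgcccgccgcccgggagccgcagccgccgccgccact

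The widths of the H3K27ac peaks moved together at the 3 promoters that had them. From C4-2B to C4-2BER the peak of SYP was 2.15 times as wide, that of ENO2 2.36 times and that of SNAP25 4.08 times. Over all genes with canonical promoter peaks in both cell lines the median was 1.12 times, and 77.2% of these genes had the wider peak in C4-2BER. The H3K18ac peaks at the same promoters were 1.26, 0.761 and 1.22 times as wide for SYP, ENO2 and SNAP25, against a median of 1.03 times over all genes.

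NCAM1 (chr11:112961275-113278436, plus strand) had more H3K18ac-covered length in C4-2BER and a weaker H3K18ac peak over its start, with a fold enrichment of 2.64 in C4-2B and 2.14 in C4-2BER. The marker had no H3K27ac over its promoter or its gene body of 317 kb in either cell line. H3K18ac gave 13 peaks over 12.9 kb in C4-2B and 29 peaks over 33.0 kb in C4-2BER, a log2 ratio of 1.30, higher than for 97.4% of protein-coding genes. Merged over the cell lines these were 32 regions, of which 8 were shared, 20 were found in C4-2BER alone and 4 in C4-2B alone. Most of the C4-2BER regions lay in introns of NCAM1 and were weak, with fold enrichments from 1.95 to 4.34 in C4-2BER, leaving aside the promoter of TTC12 at the end of the window. At that promoter both marks were lower in C4-2BER, H3K27ac with 14.55 against 27.85 and H3K18ac with 8.28 against 11.5. NCAM1 thus had more, but weak, H3K18ac and almost no H3K27ac.

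CHRNB2 (chr1:154567778-154580013, plus strand) had no H3K27ac at its canonical start. The call of decreased H3K27ac came from a peak of C4-2B with a fold enrichment of 2.25 over 1912 bp in exon 6, 8568 bp downstream of the start, which touched an annotated internal start. H3K18ac over the start had 2.96 from 0.198 kb upstream to 0.629 kb downstream in C4-2B, and 2.59 from 291 to 572 bp downstream in C4-2BER, no longer over the start itself. The strong H3K27ac peaks of the window belonged to the promoters of UBE2Q1, a ubiquitin-conjugating enzyme, with 26.6 in C4-2B and 16.96 in C4-2BER, and of ADAR, an RNA-editing enzyme. C4-2BER also had 5 H3K27ac regions that C4-2B lacked, over the bodies of TDRD10 and ADAR, with fold enrichments from 2.03 to 2.44.

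The start sites themselves were also read for H3K18ac. In C4-2B the start base of the canonical transcript lay under an H3K18ac peak at 8 of the 9 genes, all but SCG2. In C4-2BER it did at 4, SYP, SNAP25, ENO2 and NCAM1, and CHGA, CHGB, SCG3 and CHRNB2 were covered in C4-2B only. Over all protein-coding genes 5.25% were covered in C4-2B only and 2.20% in C4-2BER only. For H3K27ac, no gene of the 9 was covered in C4-2B only and SNAP25 was covered in C4-2BER only, against 1.85% and 2.68% of all genes. The peaks at the 4 genes were weak in C4-2B, between 2.50 and 2.96, near the median of 2.74 of all H3K18ac peaks in that list, and at SCG3 and CHRNB2 a C4-2BER peak stood 22 and 291 bp from the start. Over the promoter windows of every start site, H3K18ac was called decreased at CHGB alone of these 4 genes, and at SCG3 the C4-2BER peak was the stronger one.

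The RE1 element of REST was searched for on both strands as its 17-letter consensus. In the windows of 5 of the 9 genes lay 7 matches, 4.80 per Mb against 1.38 per Mb over the whole genome. The whole genome also holds sequence far from genes. Neither the density nor the share of genes with a match was counted over the windows of all genes, so no enrichment is read from these values. The matches within 1 kb of a canonical start are printed, with all 17 letters in capitals, because they place the repressor's element beside the acetylated bases.
CHGA, intron 1, chr14:92923523-92923539, 373 bp downstream, plus strand: TTCAGCACCGCGGACAG
CHGB, intron 1, chr20:5911704-5911720, 194 bp downstream, plus strand: GTCAGCACCGCGGACAG
CHRNB2, exon 1, chr1:154567954-154567970, 176 bp downstream, plus strand: TTCAGCACCACGGACAG
SNAP25, intron 1, chr20:10219672-10219688, 842 bp downstream, plus strand: TTCAGCACCGGGGACAG

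None of the 7 matches lay under an H3K27ac peak in either cell line. Under H3K18ac, 3 lay in C4-2B and 1 in C4-2BER. The RE1 matches of CHGA and CHRNB2 were covered by H3K18ac in C4-2B, at fold enrichments of 2.50 and 2.96, and by none in C4-2BER, where the peak edge lay downstream of both. The match of CHGB lay beyond the edge of its C4-2B peak and that of SNAP25 beyond the promoter peaks of both cell lines. The others, in intron 1 of NCAM1 and at position −35451 from the CHRNB2 start, are far from the starts, and the CHRNB2 one was covered by H3K18ac in both cell lines with 2.34 and 2.33. An RE1 match was found in 0.0683% of the 35116 promoters of 300 bases, windows that end before the position of all 4 printed matches and so do not count them, and no match says only that these letters are absent from a window. Binding of REST was not measured.

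Away from promoters, 5 regions had increased H3K27ac over H3K18ac that was present in both cell lines, at SCG2, SCG3, CHGA, SNAP25 and NCAM1. They were selected after their values were seen, so the values are a description. In all 5 the H3K18ac fold enrichment was also higher in C4-2BER. Over all H3K18ac regions shared by the cell lines this held for 32.6%, whatever their H3K27ac. The 5 regions were picked for increased H3K27ac, so that share is not a background for them, and shared H3K18ac regions under increased H3K27ac were not counted. The difference was smallest at CHGA, with 2.22 in C4-2B and 2.42 in C4-2BER, and largest in ratio at NCAM1, with 3.08 and 4.34. Over the genome 30.5% of all H3K27ac regions were increased, a share that does not take the place of a region or its H3K18ac into account. The 300 bases at the centre of the part shared by the peaks are printed for SNAP25, the region inside a gene of vesicle fusion. Capitals mark the E-box CAGCTG, a sequence bound by basic helix-loop-helix factors, which was chosen after the sequence was seen and was present in the central 300 bases of 17.9% of all H3K27ac regions.
SNAP25 intron 1, chr20:10240133-10240432, plus strand: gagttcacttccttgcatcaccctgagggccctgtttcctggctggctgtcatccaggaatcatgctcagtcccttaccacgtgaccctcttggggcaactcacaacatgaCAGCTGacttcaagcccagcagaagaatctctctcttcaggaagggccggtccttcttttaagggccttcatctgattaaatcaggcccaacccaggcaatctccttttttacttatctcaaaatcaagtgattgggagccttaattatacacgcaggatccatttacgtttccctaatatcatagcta

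The 5 regions differed in how much repeated sequence they held. Every 50-base word of the central 300 bases was found once in the genome at SNAP25 and CHGA. At NCAM1 72.1% of these words were found once, at SCG2 82.9% and at SCG3 87.6%, and the most repeated word had 2365, 3726 and 3439 copies. The part of repeated sequence in the peak values was not tested.

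**Figure D2:**
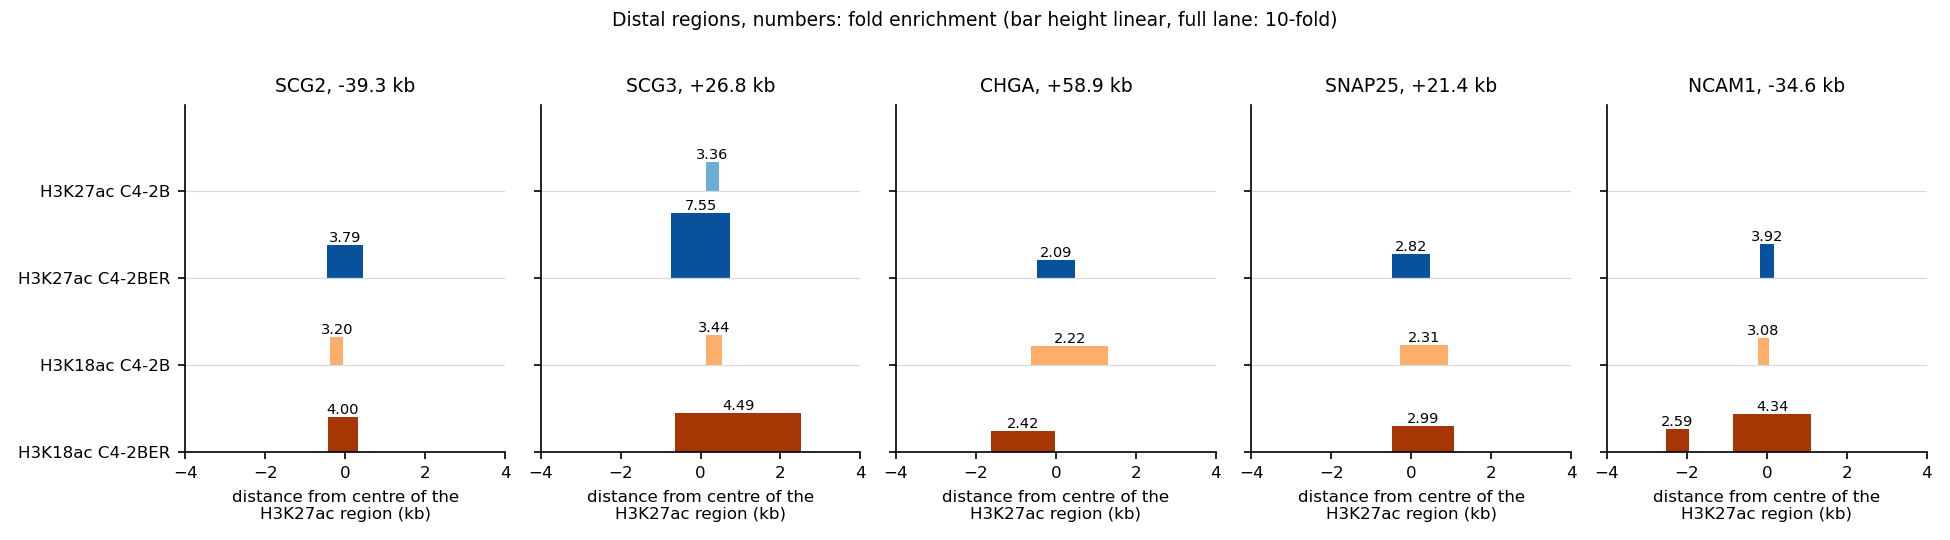
Peaks of the 4 lists within 4 kb of the centre of the 5 distal H3K27ac regions, with the distance from that centre in kb on the horizontal axis and bar height proportional to fold enrichment, printed above each bar. H3K27ac is absent in C4-2B at SCG2, CHGA, SNAP25 and NCAM1 and rises from 3.36 to 7.55 at SCG3, while H3K18ac is present in both cell lines at all 5.

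Over the whole windows, H3K27ac covered 117 kb in C4-2B and 156 kb in C4-2BER, in 46 and 47 peaks. The covered length was larger in C4-2BER at 8 of the 9 genes, all but CHGB, whereas it was larger at 69.8% of all protein-coding genes. The log2 ratio, with 1 kb added to each length, had a median of 0.92 over the 9 genes and 0.22 over all genes. The SNAP25 window rose from 0.779 to 2.97 kb, SCG3 from 3.64 to 8.45 kb, NCAM1 from 1.17 to 3.33 kb, CHRNB2 from 8.27 to 17.3 kb and SCG2 from 0 to 0.894 kb. Over the gene bodies SNAP25 rose from 233 to 1903 bp and SCG3 from 974 to 2204 bp. CHRNB2 fell there from 1912 bp to 0, and NCAM1 and SCG2 had no H3K27ac there in either cell line. In the NCAM1 window all of the C4-2B length was the peak at the TTC12 promoter, which was wider but weaker in C4-2BER. At SNAP25 and SCG3 the ratio reached 2, as it did at 7.43% of all genes, and at none of the 9 did it fall to the inverse, against 1.47%. CHGA, ENO2 and SYP, with more than 15 kb in each cell line, changed less. When each covered base was weighted by its fold enrichment above 1, the median log2 ratio of the 9 genes was −0.019, against −0.15 over all genes, and it was above 0 at 4 genes, SCG2, SCG3, SNAP25 and NCAM1, against 32.8% of all genes. Over the gene bodies alone the median was 0.00, against 0.03 over all genes, and 4 of the 9 were above 0, against 53.8%.

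H3K18ac covered 184 kb in C4-2B and 206 kb in C4-2BER, in 86 and 112 peaks. The covered length was larger in C4-2BER at 7 of the 9 genes, against 51.3% of all genes, with a median log2 ratio of 0.21 against 0.02. NCAM1, SCG3 and SCG2 had the largest ratios, with 1.30, 1.07 and 0.91, and NCAM1 and SCG3 reached the ratio of 2, as 6.22% of all genes did, and none of the 9 fell to the inverse, against 4.45%. CHGA and ENO2 had less H3K18ac-covered length in C4-2BER, 44.4 kb against 52.7 kb and 57.2 kb against 65.9 kb. Over the gene bodies alone the H3K18ac median was −0.13, against 0.00 over all genes, and weighted by fold enrichment −0.20, against −0.17. The order of the largest ratios depended on the window and the weighting, since SCG3 had 1.41 and NCAM1 1.27 with a flank of 20 kb, and SCG2 had 1.14 and NCAM1 0.97 with weighting.

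**Figure D3:**
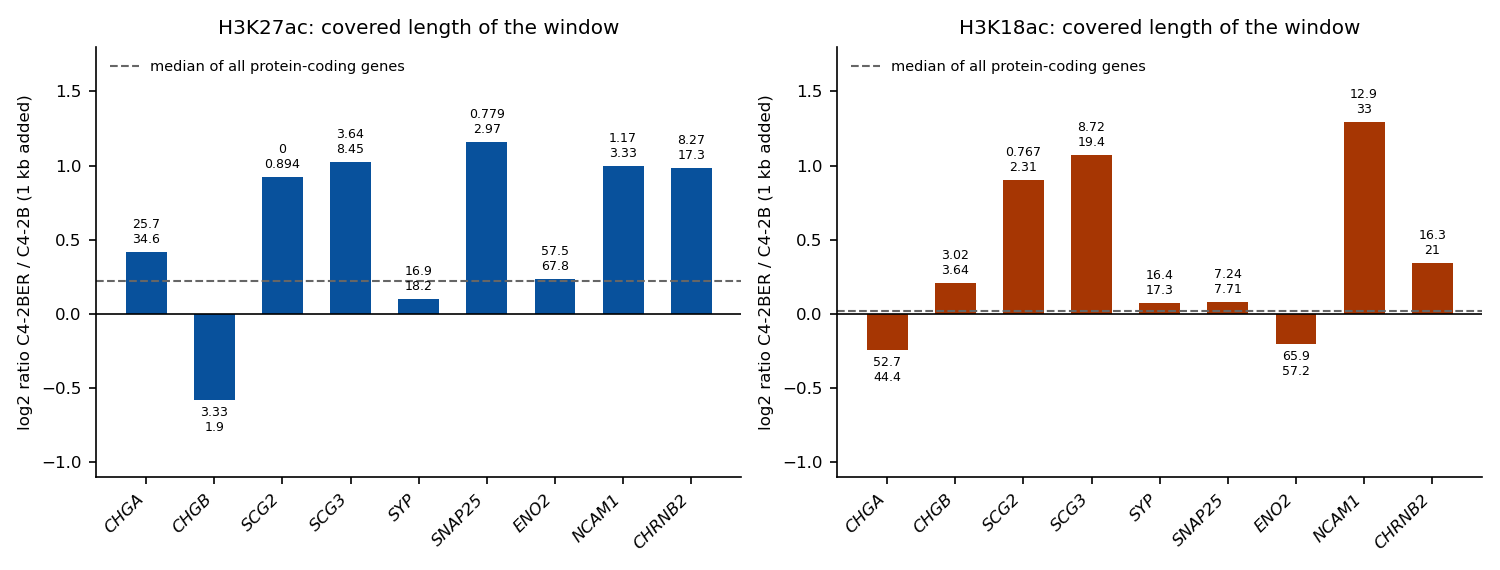
Log2 ratio of the length covered by H3K27ac (left) and H3K18ac (right) in C4-2BER over C4-2B for each window, with the covered kb printed at each bar, C4-2B above C4-2BER, and a dashed line at the median of all protein-coding genes. H3K27ac is above 0 at 8 of 9 genes, with 5 genes at 0.92 or above, and H3K18ac stands out at NCAM1, SCG3 and SCG2.

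**Figure D4:**
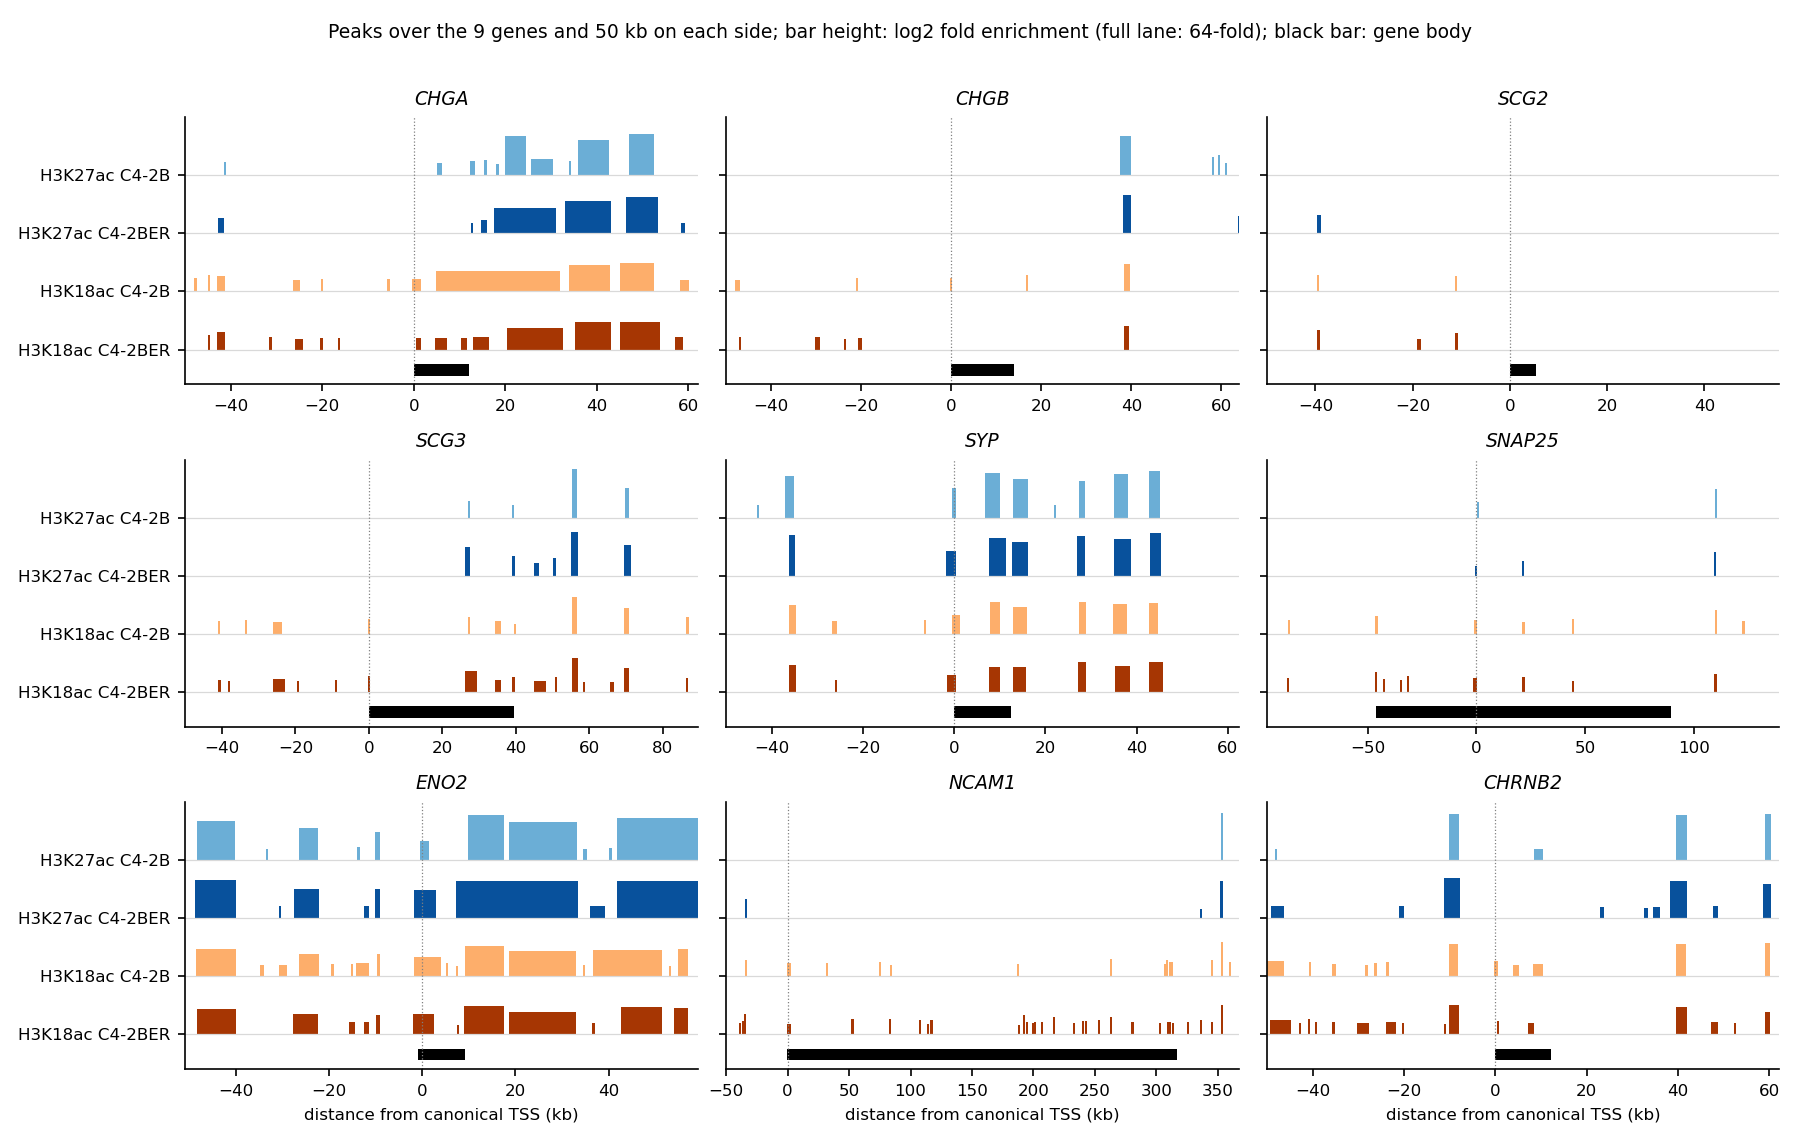
Peaks of the 4 lists over each gene and 50 kb to each side by distance from the canonical start in kb, in the direction of transcription, with bar height as log2 fold enrichment, a black bar for the gene body and very narrow peaks drawn at a minimum width. The tall bars stand away from the start of the genes, apart from SYP and ENO2, whose gene bodies also hold peaks of both marks.

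Most of the strong peaks in these windows belonged to neighbouring genes. Of 19 H3K27ac peaks in C4-2B with a fold enrichment of 10 or more, 15 lay at promoters of other genes and none at a promoter of the 9, and in C4-2BER 13 of 17 did and 1, the long peak that reached ENO2, touched a promoter of the 9. The median fold enrichment of H3K27ac peaks at promoters of other genes was 18.2 in C4-2B and 14.0 in C4-2BER, and of peaks elsewhere 2.80 and 3.20. Merged over the cell lines there were 58 H3K27ac regions, of which 32 were shared, 15 were found in C4-2BER alone and 11 in C4-2B alone. The share in C4-2BER only was 29.1% over all H3K27ac regions of the genome, and in C4-2B only 20.3%. For H3K18ac there were 127 regions, with 65 shared, 42 found in C4-2BER alone and 20 in C4-2B alone, while over all H3K18ac regions 26.1% were found in C4-2BER alone and 23.3% in C4-2B alone. Counting ratios of 2 as well, 16 H3K27ac regions of the windows were increased and 12 decreased, against 30.5% and 22.7% of all regions, and 42 and 21 H3K18ac regions, against 26.2% and 23.5%. Of the 42 H3K18ac regions of C4-2BER, 38 lay away from promoters, and 20 of the 42 were at NCAM1. Where a region was in both cell lines, the H3K27ac fold enrichment was higher in C4-2BER in 8 of 32, against 36.2% of all such regions in the genome, and the H3K18ac fold enrichment in 20 of 65, against 32.6%.

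**Figure D5:**
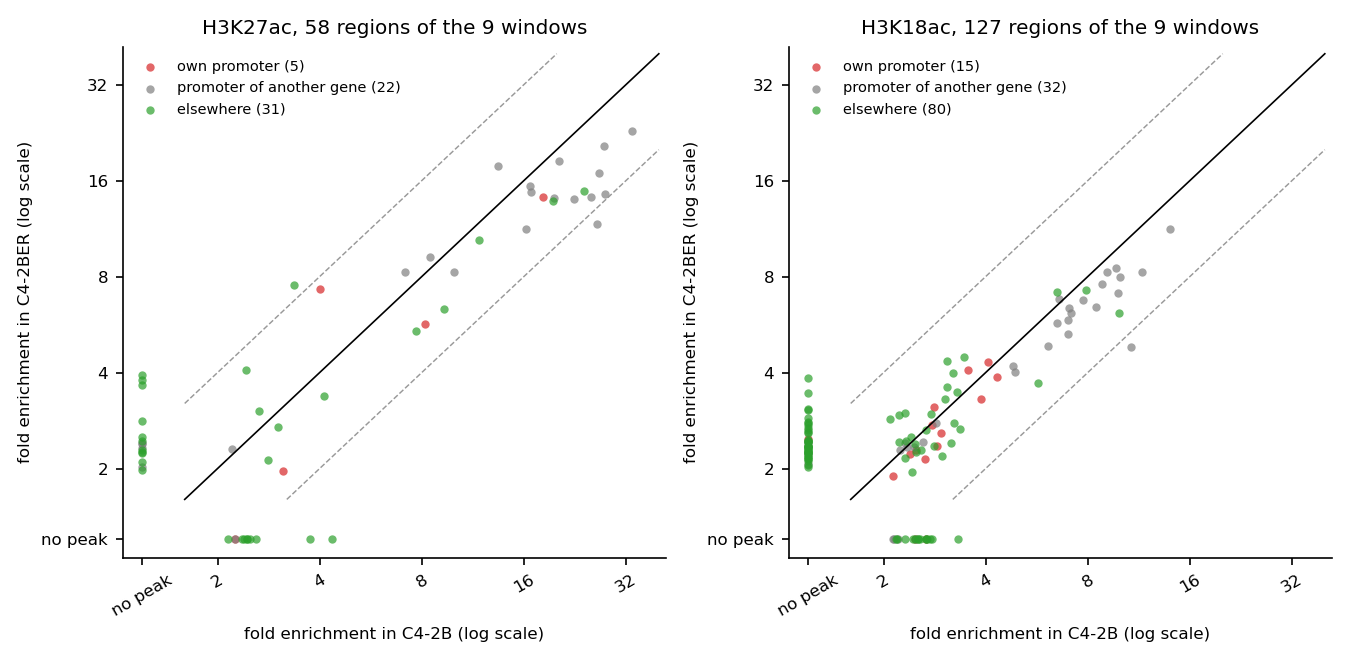
Fold enrichment of each merged region of the 9 windows in C4-2B (horizontal) and C4-2BER (vertical) on log axes, for H3K27ac (left) and H3K18ac (right), coloured by place, with regions lacking a peak drawn at the mark "no peak", the line of equal values solid and 2-fold lines dashed. The strong regions are mostly promoters of other genes and lie below the line of equal values, and the regions of 1 cell line are weak and mostly away from promoters.

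Related genes were read the same way, over every annotated start site, where 3.49% of all protein-coding genes had an increased H3K27ac promoter, 8.27% a decreased one and 23.4% no peak, with a median log2 ratio of −0.50. Of 19 genes for granule cargo and its processing, H3K27ac promoters were increased at 0 and decreased at 3, and 6 had no peak, with a median log2 ratio of −0.72 over the 12 that had a peak in each line. Of 23 genes of synaptic vesicles and SNARE complexes, 2 were increased, 1 decreased and 3 without a peak, with a median of −0.28. Of 15 other nicotinic receptor subunits, 1 was increased, 3 decreased and 5 without a peak, with −0.55, and of 14 neuronal adhesion and neuronal marker genes, 0 were increased, 1 decreased and 6 without a peak, with −0.17. The enolases ENO1, ENO3 and ENO4 had peaks in both cell lines, and 1 was decreased. Of all these genes, CADPS2, which primes dense-core granules for release, was alone in being called the same way in both marks, with H3K27ac at 35.8 in C4-2B and 14.3 in C4-2BER and H3K18ac at 13.7 and 6.43.

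For H3K18ac, 1.92% of all genes were increased and 5.25% decreased. In the lists, 1 of the 19 granule genes was increased and 3 were decreased, 0 and 1 of the 23 vesicle genes, 1 and 0 of the 15 nicotinic subunits and none of the 14 neuronal genes or the 3 enolases. The median log2 ratios were −0.23, −0.27, −0.08, −0.12 and −0.72 in that order, beside −0.33 over all genes. Of the 23 vesicle genes, 19 had H3K27ac promoter peaks in both cell lines, and of the granins CHGA, CHGB, SCG2 and SCG3 none did. Over all protein-coding genes, 14304 of 20033 did.

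The protein-coding genes whose 4 promoter values came nearest were found by the Euclidean distance over log2 of 1 plus the fold enrichment in each list. For SYP this was ALDOC, at a distance of 0.088, with H3K27ac at 8.22 and 5.37 and H3K18ac at 3.88 and 3.14 in C4-2B and C4-2BER. For ENO2 it was CHRNE at 0.22, for SNAP25 TMEM92 at 0.19 and for CHRNB2 GIMAP5 at 0.051. The distance covers 4 pooled values per gene, 1 per list, and CHGA, CHGB, NCAM1, SCG2 and SCG3 had no peak in at least 2 of the lists, so no gene was named for them.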

How the data were processed

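The 2 histone marks were measured in C4-2B and C4-2BER by ChIP-seq, with 8 ChIP libraries and 2 input libraries. According to the study's methods the authors used bowtie2 for alignment to GRCh38, discarded duplicates, poorly mapped reads and blacklisted regions, pooled the replicates and called peaks with macs2, as broad peaks by the file type, and the submitters' processing notes name Bowtie2 2.2.3, Trimmomatic 0.33 and bcl2fastq 2.17. The version and settings of macs2 are not given in the sources used here. The 4 lists the authors deposited hold the fold enrichment of every peak, the ratio of its signal to local background, and a −log10 q-value, with no read counts, so the depth is unknown. Each list has its own background, which enters any ratio of fold enrichments between lists, and the presence of a peak depends on depth.

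Peaks of chromosomes 1 to 22 and of X and Y were read, with starts counted from 1, after chromosome names and lengths were compared with the GRCh38 sequence. Genes and start sites came from GENCODE release 44. A gene's promoter value was taken from the peak with the highest fold enrichment from 2000 bp upstream to 500 bp downstream of its start sites. Windows were the gene body and 50 kb to each side, and 1 kb was added to covered lengths before ratios. Peaks of C4-2B and C4-2BER that overlapped were joined into regions, with the length-weighted mean fold enrichment as value. Calls used a ratio of 2. Groups were single pooled values, so no test was made, and called counts are given beside the share of all protein-coding genes or regions called. The genes, related lists and motifs were chosen with earlier results of these data known, and the E-box and the distal regions after their sequences or values were seen. Genes of the related lists were named if called the same way in both marks, at most 4 per list and direction, neighbours if their promoter lay under a peak of a window, and for each gene the 1 protein-coding gene with the nearest promoter values, unless it had no peak in 2 or more lists. The check of the cell lines names its own marker genes. Results for some genes and sequences are not reported here. Promoter sequences came from the RefSeq table (GRCh38.p14), which matched 5 of the 9 genes, and others from GRCh38. Alternatives changed the promoter, the window, the peak filter and the scaling. Merging, coverage, calls and rescaling were tested on simulated lists. The software was Python 3.11.15, with pandas 2.3.3, numpy 2.4.6, matplotlib 3.10.9 and statsmodels 0.14.6.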

Additional observations from a re-analysis of the deposited data

How the results depend on the processing

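The promoter calls of single genes depended on which start sites and peaks were used, and the covered lengths on the window and on weighting. With the canonical TSS only, H3K27ac was increased at 0 genes and decreased at 0, and H3K18ac was decreased at 2. The number with increased H3K27ac was also 0 when the peak covering most of the promoter or the presence of a peak alone was used. Decreased H3K27ac promoters numbered 0 with a fold enrichment of at least 4 or a −log10 q-value from 5 upwards and 2 with equal numbers of the highest-fold peaks, and increased H3K18ac promoters numbered 1 with a fold enrichment of at least 4 and 2 with that −log10 q-value. The median log2 ratio of H3K27ac-covered length was 0.00 over the gene body only, 0.24 with a flank of 20 kb and −0.019 when weighted by fold enrichment above 1, beside 0.03, 0.16 and −0.15 over all genes. Over the gene body only, 4 genes for H3K27ac and 3 for H3K18ac had more covered length in C4-2BER, against 53.8% and 45.2% of all genes, and 4 each with weighting, against 32.8% and 36.6%. Genes at a ratio of 2 numbered 1 for H3K27ac with a flank of 100 kb, with equal numbers of peaks, with the −log10 q-value and with weighting, and 0 with the fold enrichment of at least 4, and for H3K18ac 1 with the fold enrichment of at least 4, 4 with the −log10 q-value and 1 with weighting. Some counts stayed equal while the genes changed. The 1 gene with decreased H3K18ac was CHGA in place of CHGB with either filter, the 2 genes at a ratio of 2 were ENO2 and SNAP25 for H3K27ac over the gene body only, and NCAM1 and SCG2 for H3K18ac with a flank of 100 kb. The alternative filters leave fewer peaks, and beyond that the cause was not tested. In the other 69 of 94 recomputed counts, medians and peak-number ratios the value moved by less than 1.5 times or by the same factor on the log2 scale, and so did 182 of 208 values of single genes, while 26 moved by more. The sign turned in 19 of the 208, among them 17 covered lengths, of which 7 were with weighting and 5 over the gene body only. Over the gene body CHRNB2 had a log2 ratio of −1.54 in H3K27ac and −0.91 in H3K18ac, and CHGA one of −1.19 in H3K27ac, without peaks at promoters of other genes −2.27 for H3K27ac at ENO2, and with a flank of 20 kb −0.50 for H3K18ac at CHGB and CHRNB2. None of these values had reached a ratio of 2 before. Without replicates in the lists no replicate could be left out. No paired analysis was possible because the replicates had been merged before the lists were deposited and no test was made.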
